A study of Mus musculus with 16 samples.

Results

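The genes described are 10 genes of the integrated stress response that runs through the transcription factor ATF4, measured by RNA sequencing in the thyroid gland of the mouse. They are the regulator Atf4 itself and 9 genes known as its targets (Ddit3, Trib3, Chac1, Ddit4, Sesn2, Asns, Psat1, Phgdh and Aldh1l2). Each was taken as the entry of the count table whose gene symbol equals its name, which gave 10 of 25611 entries, and all 10 were among the 16630 genes with enough counts to be tested. The question put to them was whether a diet low in iodine, or loss of the transcription factor GLIS3 from the thyroid, engages the response.

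The study sequenced thyroid RNA of 16 female mice, 4 in each of 4 groups. WT(ND) mice carried no Cre and ate a normal diet (NIH-31), and WT(LID) mice of the same genotype ate a low-iodine diet (TD.95125). Mice of the groups Glis3-Pax8Cre(ND) and Glis3-Pax8Cre(LID) had exon 5 of a floxed Glis3 allele (Glis3<tm2Amj>) removed by a Cre under control of the Pax8 locus (Pax8<tm1.1(cre)Mbu>), on a B6;129 background, and ate the same 2 diets. The diets were given for 6 days after weaning at 3 weeks, and the labels give an age of 1 month where the methods give 4 weeks. Pax8 drives Cre in follicular cells of the thyroid, so other cells of the gland keep Glis3. The WT mice lacked the Cre allele, so an effect of the Cre or of the altered Pax8 locus and an effect of the Glis3 deletion cannot be told apart. The study reports that serum TSH, a pituitary hormone, was slightly higher in Glis3-Pax8Cre than in WT mice on ND. On LID it reports a significantly larger rise of TSH in Glis3-Pax8Cre mice. An effect of GLIS3 loss within the cells and an effect of the TSH level cannot be told apart either. Whether glands were pooled is not stated.

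The integrated stress response starts with kinases that phosphorylate the translation factor eIF2α on sensing unfolded protein, missing amino acids, double-stranded RNA or lack of heme. Phosphorylated eIF2α lowers protein synthesis in general but raises translation of the Atf4 mRNA, and ATF4 then switches on genes for amino acid synthesis and transport, redox balance, restraint of mTORC1 and, when stress lasts, cell death. Thyroid follicular cells fill their endoplasmic reticulum with thyroglobulin, and when iodine is scarce the pituitary hormone TSH drives them to grow and to take up more iodide. Because ATF4 is controlled in large part by translation, the level of its mRNA does not measure the activity of the protein.

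Total counts per library ran from 13892352 in Glis3-Pax8Cre(ND) replicate 1 to 461077969 in WT(ND) replicate 4, with a median of 69163432. Levels are given as CPM, the count scaled to a common library size, after normalization by the trimmed mean of M-values (TMM), and on that scale 3 counts corresponded to 0.00674 CPM in the deepest library and 0.188 CPM in the shallowest. Such limits cover counting error only. Exon 5 is not told apart in totals per gene, and Glis3 was not lower in the Glis3-Pax8Cre groups, with ND means of 73.0 ± 18.7 CPM (SD, n = 4) in WT and 96.1 ± 8.41 in Glis3-Pax8Cre mice and LID means of 156 ± 21.7 and 165 ± 37.4. The iodide transporter Slc5a5 did separate the groups as labelled, rising with the diet from 146 ± 49.4 to 2029 ± 137 CPM in WT mice and standing at 11.2 ± 3.25 (ND) and 16.7 ± 2.32 (LID) in Glis3-Pax8Cre mice. Thyroglobulin, Tg, marked every library as thyroid and took 255605 ± 50236 (ND) and 258502 ± 51266 CPM (LID) in WT mice against 145550 ± 28750 (ND) and 106693 ± 26648 (LID) in Glis3-Pax8Cre mice.

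Some libraries stood apart by marker genes of thymocytes, cells of the thymus. The 10 thymocyte markers summed to 215, 69.8, 16.1 and 16.1 CPM in the WT(ND) mice and to 17.0, 18.6, 17.9 and 3608 CPM in the Glis3-Pax8Cre(ND) mice. On LID their sums were 12.0, 10.1, 323 and 10.9 CPM for WT mice and 12.8, 12.9, 11.8 and 481 CPM for Glis3-Pax8Cre mice. Glis3-Pax8Cre(ND) replicate 4, with Rag1 at 1120 CPM, lay far above the rest, and 5 mice exceeded 50 CPM. Calls for the 10 genes that change without these mice are given both ways.

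Per kilobase of exon, which allows genes to be compared with one another, Atf4 had the highest mean level of the 10 genes in each group, at 46.0 ± 3.00 CPM per kilobase in WT(ND) and 56.3 ± 4.10 in WT(LID). Ddit4 was next in each group, at 25.6 ± 2.53 CPM per kilobase in WT(ND) and 50.3 ± 5.28 in WT(LID). In WT(ND) the following 5 genes lay close together, from Asns at 9.97 ± 0.449 through Psat1 at 8.95 ± 0.148, Phgdh at 8.56 ± 1.02 and Sesn2 at 8.31 ± 0.828 to Ddit3 at 7.26 ± 0.856 CPM per kilobase. Trib3 at 2.57 ± 0.262 CPM per kilobase came after them, and Chac1 at 0.393 ± 0.318 and Aldh1l2 at 0.270 ± 0.0545 were lowest, with less between them than the spread of Chac1. The order was not the same in the other groups. Sesn2 came after Ddit4 in both Glis3-Pax8Cre groups, at 9.44 ± 2.18 CPM per kilobase on ND, close to Asns at 9.01 ± 1.85, and at 12.7 ± 2.56 on LID. Aldh1l2 was above Chac1 in each group but WT(ND), and reached 1.95 ± 0.507 CPM per kilobase in Glis3-Pax8Cre(LID) beside 0.370 ± 0.117 for Chac1.

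How far each gene moved among the 4 groups differed widely. The highest mean CPM of a group exceeded the lowest 7.22-fold for Aldh1l2, 2.26-fold for Phgdh, 1.97-fold for Ddit4, 1.53-fold for Sesn2, 1.44-fold for Trib3 and 1.39-fold for Psat1. For Atf4 the ratio was 1.23, for Asns 1.15, for Ddit3 1.11 and for Chac1 1.09.

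**Figure D1:**
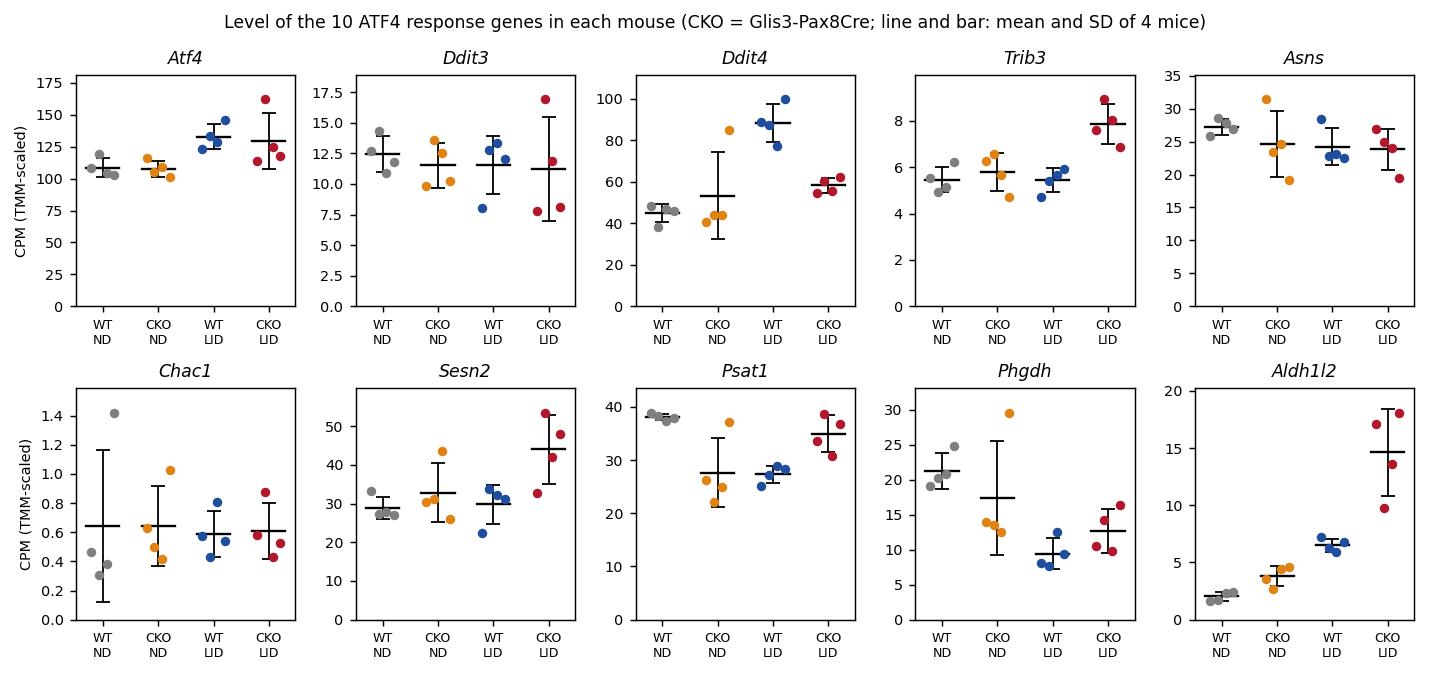
Level of each of the 10 genes in CPM (vertical axis from 0, TMM-scaled) in each mouse, by group (CKO stands for Glis3-Pax8Cre), with the line and bar giving mean and SD of 4 mice. Aldh1l2 climbs from 1.67 to 2.45 CPM in WT(ND) to 9.73 to 18.1 CPM in Glis3-Pax8Cre(LID), whereas the 4 groups of Asns, Ddit3 and Chac1 overlap.

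ATF4 forms dimers with C/EBP proteins on a composite element, and the promoters of the members were searched for its core letters because they are how ATF4 reaches a target. Promoter sequences from RefSeq (build GRCm38.p6, 250 bases before to 50 after the start) matched 9 of the 10 genes by symbol, with 10 promoters in all, and Aldh1l2 had no entry. The core TGATGNAA, searched on both strands, was present in 3 of these 10 promoters and in 1304 of all 32851 promoters (3.97%). The 3 windows of 30 bases shown here, with the match in capitals and each read 5′ to 3′ on the strand of its gene, show how the match differs in orientation and in distance from the start. In Trib3 (chr2:152344028-152344057, minus strand) the first base of the match lay 14 bases after the start of the RefSeq entry, in Asns (chr6:7693214-7693243, minus strand) 23 bases before it, and in Chac1 (chr2:119351038-119351067, plus strand) 193 bases before it. For Asns that start (7693209) lies 27 bases upstream of the gene start in the count table (7693182), whereas for Trib3 and Chac1 the starts are the same.
Trib3: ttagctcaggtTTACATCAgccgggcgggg
Asns: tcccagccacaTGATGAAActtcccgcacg
Chac1: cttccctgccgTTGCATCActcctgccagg
A match is a run of letters and not a measured binding site. The letters TGGGGGGT, the core of the site that GLIS proteins bind, searched likewise on both strands, were in 501 promoters (1.53%) and in none of the 10 promoters of the members, which says only that these letters are not in these windows.

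Atf4 (Entrez 11911, mm10 15:80255184-80257545, plus strand) encodes the transcription factor at the centre of the response. Atf4 stood at 108, 119, 104 and 103 CPM in the WT(ND) mice (mean 108 ± 7.08) and at 123, 133, 129 and 146 CPM in the WT(LID) mice (133 ± 9.67). Its levels were 116, 105, 109 and 101 CPM in Glis3-Pax8Cre(ND) (108 ± 6.46) and 114, 162, 125 and 118 CPM in the Glis3-Pax8Cre(LID) mice (130 ± 21.8). The WT groups on the 2 diets did not overlap, whereas the Glis3-Pax8Cre groups did, with 114 CPM in the lowest mouse on LID below 116 CPM in the highest on ND. In WT mice Atf4 rose on LID with a log2 fold change of 0.29 (95% CI 0.08 to 0.51, 1.22-fold) and an adjusted p of 0.0304 by the quasi-likelihood test of edgeR with Benjamini-Hochberg adjustment over the 16630 genes. That call was a narrow one, since scaling to library size alone gave 0.13 with an adjusted p of 0.387 by the same test, and the adjusted p ran from 0.00927 to 0.387 over the alternative settings. It was also lost by the same test without WT(ND) replicate 1 (adjusted p 0.0557), 3 (0.0646) or 4 (0.0733), without WT(LID) replicate 2 (0.0544) or 4 (0.0976), and, at 0.37, without the 5 mice with thymocyte markers (0.0589). In Glis3-Pax8Cre mice the estimate for the diet was 0.27 (95% CI 0.05 to 0.48) with an adjusted p of 0.0641 by the same test, and 0.33 with 0.0375 without Glis3-Pax8Cre(LID) replicate 1. It dropped to 0.14 without Glis3-Pax8Cre(LID) replicate 2 (adjusted p 0.199 by the same test) and to 0.13 with library size alone (0.418, in a range of 0.0503 to 0.418 over the alternatives). The 2 diet effects differed by -0.02 on the log2 scale with an adjusted p of 0.941 by the same test, and by 0.00 with library size alone. Genotype gave -0.01 on ND (95% CI -0.23 to 0.20) and -0.03 on LID (95% CI -0.25 to 0.18), and each became 0.11 with scaling to library size alone. In whole glands, fewer cells of a type and less RNA per cell cannot be told apart, for Atf4 or for the genes that follow.

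Ddit3 (Entrez 13198, mm10 10:127290793-127296288, plus strand) encodes CHOP, a partner of ATF4 that promotes cell death in prolonged stress. Ddit3 stood at 12.7, 14.3, 10.9 and 11.8 CPM in WT(ND) and at 8.07, 12.8, 13.3 and 12.0 CPM in WT(LID). In the Glis3-Pax8Cre mice Ddit3 stood at 9.79, 13.6, 12.5 and 10.2 CPM on ND and at 7.79, 16.9, 11.9 and 8.14 CPM on LID. The 4 groups overlapped throughout, and the widest of them, Glis3-Pax8Cre(LID), held both the highest and the lowest mouse. The estimates were -0.11 (95% CI -0.58 to 0.36) for the diet in WT mice and -0.05 (95% CI -0.52 to 0.42) for the diet in Glis3-Pax8Cre mice. For genotype they were -0.11 on ND (95% CI -0.58 to 0.37) and -0.04 on LID (95% CI -0.52 to 0.43), which turned to 0.01 and 0.11 with scaling to library size alone. The gene overlaps Mars, and reads were counted without regard to strand. The Ddit3 count could therefore lack reads that fit both genes or include some from Mars.

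Trib3 (Entrez 228775, mm10 2:152337425-152344060, minus strand) encodes a pseudokinase that is induced by ATF4 and CHOP and dampens both. Trib3 stood at 5.55, 4.94, 5.16 and 6.21 CPM in WT(ND) (5.46 ± 0.556) and at 4.71, 5.42, 5.68 and 5.92 CPM in WT(LID) (5.43 ± 0.527). In Glis3-Pax8Cre mice its levels were 6.27, 6.57, 5.68 and 4.71 CPM on ND (5.81 ± 0.819) and 7.59, 8.92, 8.03 and 6.85 CPM on LID (7.85 ± 0.861). The lowest Glis3-Pax8Cre(LID) mouse was above the highest mouse of each other group, and those other groups overlapped one another. Genotype raised Trib3 on LID by 0.53 on the log2 scale (95% CI 0.26 to 0.81, 1.44-fold) with an adjusted p of 0.00559 by the quasi-likelihood test of edgeR (Benjamini-Hochberg), and this call held in each alternative fit and with each left-out mouse, but at 1.44-fold it fell short of the stricter threshold of an adjusted p under 0.01 with more than a 2-fold change. In Glis3-Pax8Cre mice LID raised Trib3 by 0.44 (95% CI 0.16 to 0.71, 1.35-fold) with an adjusted p of 0.0228 by the same test. By the same test the diet call in Glis3-Pax8Cre mice did not survive library size alone (0.31, adjusted p 0.0900). It was lost by the same test with little change of the estimate in a fit of those 8 mice only (0.43, adjusted p 0.0905), with a block for replicate in those 8 mice (0.44, 0.0714), and without the 5 mice with thymocyte markers (0.41, 0.0545), within 0.00627 to 0.0905 over the alternatives. It was lost as well without Glis3-Pax8Cre(ND) replicate 4 (0.34, adjusted p 0.0526 by the same test), Glis3-Pax8Cre(LID) replicate 2 (0.0643) or 3 (0.0546). In WT mice the estimate for the diet was -0.01 (95% CI -0.28 to 0.26), and the sign was lost with scaling by relative log expression, at 0.00. The diet effects of the genotypes differed by 0.45 (95% CI 0.06 to 0.83), which did not pass at an adjusted p of 0.132 by the same test, so a diet effect particular to Glis3-Pax8Cre mice was not shown.

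Chac1 (Entrez 69065, mm10 2:119351242-119354327, plus strand) encodes an enzyme that breaks down glutathione. Chac1 stood at 0.462, 0.308, 0.381 and 1.42 CPM in WT(ND) and at 0.573, 0.430, 0.809 and 0.540 CPM in WT(LID). In Glis3-Pax8Cre mice it stood at 0.627, 0.496, 0.415 and 1.03 CPM on ND and at 0.583, 0.879, 0.433 and 0.527 CPM on LID. It rested on 10 to 631 counts per library, the groups overlapped, and WT(ND) replicate 4 alone was high in its group. The intervals were the widest of the 10 genes, with -0.17 for the diet in WT mice (95% CI -1.11 to 0.76), -0.08 for the diet in Glis3-Pax8Cre mice (95% CI -1.05 to 0.88) and 0.04 for genotype on LID (95% CI -0.91 to 0.99). Genotype on ND gave -0.05 (95% CI -0.99 to 0.90), which became 0.12 with scaling to library size alone. Without WT(ND) replicate 4 the diet in WT mice gave 0.61, genotype on ND 0.74 and the interaction -0.70, where the 16 mice gave 0.09. Without the 5 mice with thymocyte markers these were -0.85, -0.90 and 1.18, so changes approaching a doubling in either direction were not detectable at this depth and spread.

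Ddit4 (Entrez 74747, mm10 10:59949675-59951770, minus strand) encodes REDD1, an inhibitor of mTORC1 that is also induced by hypoxia and by glucocorticoids. Ddit4 stood at 48.2, 38.4, 47.1 and 45.7 CPM in WT(ND) (44.8 ± 4.44) and at 88.8, 87.5, 77.1 and 99.7 CPM in WT(LID) (88.3 ± 9.27). In Glis3-Pax8Cre mice Ddit4 stood at 40.8, 43.8, 43.9 and 84.9 CPM on ND (53.4 ± 21.1) and at 54.8, 60.3, 55.8 and 62.1 CPM on LID (58.3 ± 3.53). Each WT(LID) mouse was above each WT(ND) and each Glis3-Pax8Cre(LID) mouse, while Glis3-Pax8Cre(ND) replicate 4, the library with the highest thymocyte markers, stood alone at 84.9 CPM. LID raised Ddit4 in WT mice by 0.98 on the log2 scale (95% CI 0.58 to 1.37, 1.97-fold) with an adjusted p of 6.40e-04 by the quasi-likelihood test of edgeR (Benjamini-Hochberg). That call was kept in each alternative fit and with each left-out mouse, but fell just short of the 2-fold change of the stricter threshold. In Glis3-Pax8Cre mice the estimate was 0.13 (95% CI -0.27 to 0.52, adjusted p 0.649 by the same test), which was -0.02 with scaling to library size alone. Without Glis3-Pax8Cre(ND) replicate 4 it was 0.43 with an adjusted p of 0.00283 by the same test, and without the 5 mice with thymocyte markers 0.41 with 0.00468, within 0.00468 to 0.958 over the alternatives.

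Genotype lowered Ddit4 on LID, with a log2 fold change of -0.60 (95% CI -0.99 to -0.21, 1.51-fold lower) and an adjusted p of 0.0223 by the quasi-likelihood test of edgeR (Benjamini-Hochberg). By the same test this drop was no longer called with library size alone (-0.46, adjusted p 0.0901, in a range of 1.41e-04 to 0.0901 over the alternatives). It was also lost by the same test, at about the same size, without WT(LID) replicate 4 (-0.54, adjusted p 0.0648), Glis3-Pax8Cre(LID) replicate 1 (-0.57, 0.0552) or Glis3-Pax8Cre(LID) replicate 3 (-0.58, 0.050, at the threshold). On ND genotype gave 0.25 for Ddit4 (95% CI -0.14 to 0.64), and -0.06 without Glis3-Pax8Cre(ND) replicate 4. The diet effect on Ddit4 differed between genotypes by -0.85 (95% CI -1.41 to -0.30) with an adjusted p of 0.0451 by the same test. This too was near the threshold by the same test, at 0.0732 with library size alone in a range of 0.0132 to 0.0732 over the alternatives. Each of 11 left-out mice took the difference past 0.05 by the same test, namely WT(ND) replicates 1 (0.0545), 2 (0.0906), 3 (0.0520) and 4 (0.0649), WT(LID) replicates 1 (0.0635), 2 (0.0678) and 4 (0.0939), and Glis3-Pax8Cre(LID) replicates 1 (0.0837), 2 (0.0636), 3 (0.0695) and 4 (0.0629). In those 11 fits the difference stayed between -0.90 and -0.78. It was smallest without Glis3-Pax8Cre(ND) replicate 4 (-0.55, adjusted p 0.00818 by the same test) and without the 5 mice (-0.58, 0.0169), and was called in both.

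Sesn2 (Entrez 230784, mm10 4:132492807-132510456, minus strand) encodes Sestrin 2, a leucine sensor that also restrains mTORC1. Sesn2 stood at 33.2, 27.4, 27.9 and 27.1 CPM in WT(ND) (28.9 ± 2.88) and at 22.4, 33.7, 32.2 and 31.1 CPM in WT(LID) (29.9 ± 5.06). In Glis3-Pax8Cre mice Sesn2 stood at 30.5, 31.2, 43.6 and 25.9 CPM on ND (32.8 ± 7.56) and at 32.7, 53.5, 42.0 and 48.0 CPM on LID (44.1 ± 8.89). Of the Glis3-Pax8Cre(LID) mice, 3 lay above every WT(LID) mouse, and replicate 1 at 32.7 CPM lay below WT(LID) replicate 2 at 33.7 CPM. On LID, Sesn2 was higher in Glis3-Pax8Cre than in WT mice by 0.56 on the log2 scale (95% CI 0.20 to 0.93, 1.48-fold) with an adjusted p of 0.0219 by the quasi-likelihood test of edgeR (Benjamini-Hochberg). The call was lost by the same test without WT(LID) replicate 1 (0.0746), Glis3-Pax8Cre(LID) replicate 2 (0.0738) or 4 (0.0576), and, with the estimate still at 0.56, without the 5 mice with thymocyte markers (0.0704), in a range of 0.00266 to 0.0704 over the alternatives. In Glis3-Pax8Cre mice the diet estimate of 0.43 (95% CI 0.06 to 0.79) had an adjusted p of 0.0825 by the same test, and it passed at 0.59 without Glis3-Pax8Cre(ND) replicate 3 (0.0181) and at 0.54 without Glis3-Pax8Cre(LID) replicate 1 (0.0307). By the same test it was 0.32 without Glis3-Pax8Cre(ND) replicate 4 (adjusted p 0.197) or Glis3-Pax8Cre(LID) replicate 2 (0.220), and 0.28 without the 5 mice (0.360, in a range of 0.0684 to 0.360 over the alternatives). In WT mice the diet estimate was 0.05 (95% CI -0.32 to 0.41), and -0.11 with scaling to library size alone. The difference between the diet effects was 0.38 with an adjusted p of 0.349 by the same test.

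Asns (Entrez 27053, mm10 6:7675171-7693182, minus strand) encodes asparagine synthetase, a classical target of ATF4 in amino acid shortage. Asns stood at 25.8, 28.6, 27.8 and 26.9 CPM in WT(ND) and at 28.4, 22.8, 23.1 and 22.5 CPM in WT(LID). In Glis3-Pax8Cre mice Asns stood at 31.4, 23.4, 24.6 and 19.2 CPM on ND and at 26.9, 24.9, 24.0 and 19.4 CPM on LID. The groups overlapped, and WT(LID) replicate 1 stood above the other 3 mice of its group. The diet estimate was -0.17 in WT mice (95% CI -0.45 to 0.11) and -0.05 in Glis3-Pax8Cre mice (95% CI -0.33 to 0.24), the latter turning to 0.09 without Glis3-Pax8Cre(ND) replicate 1 and to 0.04 without Glis3-Pax8Cre(LID) replicate 4. Genotype gave -0.15 on ND (95% CI -0.43 to 0.13) and -0.03 on LID (95% CI -0.31 to 0.26), the latter turning to 0.12 with scaling to library size alone.

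Phgdh (Entrez 236539, mm10 3:98313171-98339969, minus strand) encodes the enzyme for the entry step of serine synthesis from a glycolytic intermediate. Phgdh stood at 19.1, 20.2, 20.8 and 24.9 CPM in WT(ND) (21.3 ± 2.55) and at 8.17, 7.61, 12.5 and 9.45 CPM in WT(LID) (9.42 ± 2.17). In Glis3-Pax8Cre mice Phgdh stood at 13.9, 13.5, 12.6 and 29.6 CPM on ND (17.4 ± 8.18) and at 10.5, 14.2, 9.76 and 16.4 CPM on LID (12.7 ± 3.12). Each WT(LID) mouse was below each WT(ND) mouse, and the value of 29.6 CPM came from Glis3-Pax8Cre(ND) replicate 4, again the library with the highest thymocyte markers. In WT mice LID lowered Phgdh, with a log2 fold change of -1.18 (95% CI -1.73 to -0.62, 2.26-fold lower) and an adjusted p of 0.00210 by the quasi-likelihood test of edgeR (Benjamini-Hochberg), a call kept in each alternative fit, at the stricter threshold and with each left-out mouse. In Glis3-Pax8Cre mice the diet estimate was -0.46 (95% CI -1.01 to 0.09) with an adjusted p of 0.208 by the same test. Without Glis3-Pax8Cre(ND) replicate 4 that estimate was -0.07 (adjusted p 0.807 by the same test), and it lay between -0.60 and -0.21 over the alternatives. Genotype gave -0.29 on ND (95% CI -0.84 to 0.26), and without Glis3-Pax8Cre(ND) replicate 4 it gave -0.67 with an adjusted p of 0.0220 by the same test. The genotype effect on ND was -0.79 without the 5 mice with thymocyte markers (adjusted p 0.0200 by the same test) and -0.48 with their marker score as a covariate (0.0432), within 0.0200 to 0.723 over the alternatives. On LID genotype gave 0.43 (95% CI -0.12 to 0.98) with an adjusted p of 0.232 by the same test, and 0.45 with 0.0456 without the 5 mice, in a range of 0.0456 to 0.265. The difference between the diet effects was 0.72 (95% CI -0.06 to 1.5, adjusted p 0.223 by the same test), and it passed at 1.09 without Glis3-Pax8Cre(ND) replicate 4 (0.0107), at 1.23 without the 5 mice (0.00713) and at 0.88 with the covariate (0.0159), in a range of 0.00713 to 0.266.

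Psat1 (Entrez 107272, mm10 19:15905123-15925059, minus strand) encodes the aminotransferase that acts after PHGDH in serine synthesis. Psat1 stood at 38.9, 38.2, 37.4 and 37.9 CPM in WT(ND) (38.1 ± 0.630) and at 25.2, 27.2, 28.8 and 28.3 CPM in WT(LID) (27.4 ± 1.60). In Glis3-Pax8Cre mice Psat1 stood at 26.2, 22.2, 25.0 and 37.1 CPM on ND (27.6 ± 6.55) and at 33.5, 38.7, 30.8 and 36.7 CPM on LID (34.9 ± 3.49). WT(ND) did not overlap either WT(LID) or Glis3-Pax8Cre(ND), and WT(LID) lay below Glis3-Pax8Cre(LID), so the means of the diets stood in opposite order in the genotypes. In WT mice LID lowered Psat1, with a log2 fold change of -0.48 (95% CI -0.74 to -0.21, 1.39-fold lower) and an adjusted p of 0.00626 by the quasi-likelihood test of edgeR (Benjamini-Hochberg). This fall was kept in each alternative fit and with each left-out mouse, but not at the stricter threshold. In Glis3-Pax8Cre mice the diet estimate was 0.34 (95% CI 0.07 to 0.60) with an adjusted p of 0.0587 by the same test. It passed by the same test without Glis3-Pax8Cre(ND) replicate 4 (0.51, adjusted p 4.53e-04), without the 5 mice with thymocyte markers (0.49, 0.00596), with the covariate (0.41, 0.00467) and with Tg left out of the table (0.0485), and with DESeq2 it had an adjusted p of 0.0440, in a range of 0.00467 to 0.330 over the alternatives. The diet effect on Psat1 differed between genotypes by 0.81 (95% CI 0.44 to 1.19) with an adjusted p of 0.00724 by the same test, and this difference too was kept in each alternative fit and with each left-out mouse, but not at the stricter threshold.

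Genotype lowered Psat1 on ND by the quasi-likelihood test of edgeR (Benjamini-Hochberg), with a log2 fold change of -0.46 (95% CI -0.73 to -0.20, 1.38-fold lower) and an adjusted p of 0.0176. By the same test that drop missed the threshold with library size alone (-0.33, adjusted p 0.116), in a fit of those 8 mice only (0.0999) and without Glis3-Pax8Cre(ND) replicate 3 (0.0530), in a range of 0.00135 to 0.116 over the alternatives. On LID genotype raised Psat1 by 0.35 (95% CI 0.09 to 0.61, 1.27-fold) with an adjusted p of 0.0444 by the same test. This call was kept with only 4 of the 16 left-out mice, the fewest of any call for the members. It was lost by the same test with at least 10 counts required in every mouse (0.0513, in a range of 0.0105 to 0.0513) and without WT(ND) replicate 1 (0.0572), 2 (0.0546), 3 (0.0525) or 4 (0.0562) or Glis3-Pax8Cre(ND) replicate 1 (0.0509). It was lost by the same test also without WT(LID) replicate 1 (0.114), 2 (0.0924), 3 (0.0668) or 4 (0.0702) and without Glis3-Pax8Cre(LID) replicate 1 (0.0605), 2 (0.116) or 4 (0.0975), while the estimate stayed between 0.30 and 0.40.

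Aldh1l2 (Entrez 216188, mm10 10:83487447-83534140, minus strand) encodes the mitochondrial formyltetrahydrofolate dehydrogenase, which makes NADPH from folate-bound carbon. Aldh1l2 stood at 1.67, 1.69, 2.30 and 2.45 CPM in WT(ND) (2.03 ± 0.409) and at 7.19, 6.26, 5.88 and 6.75 CPM in WT(LID) (6.52 ± 0.574). In Glis3-Pax8Cre mice Aldh1l2 stood at 3.58, 2.66, 4.40 and 4.60 CPM on ND (3.81 ± 0.884) and at 17.1, 9.73, 13.6 and 18.1 CPM on LID (14.6 ± 3.80). The groups followed one another with no overlap, from WT(ND) through Glis3-Pax8Cre(ND) and WT(LID) to Glis3-Pax8Cre(LID). LID raised Aldh1l2 in WT mice by 1.68 on the log2 scale (95% CI 1.23 to 2.13, 3.21-fold) with an adjusted p of 1.92e-05 by the quasi-likelihood test of edgeR (Benjamini-Hochberg). In Glis3-Pax8Cre mice LID raised it by 1.94 (95% CI 1.49 to 2.40, 3.84-fold) with an adjusted p of 1.90e-05 by the same test. Genotype raised Aldh1l2 on LID by 1.17 (95% CI 0.72 to 1.61, 2.24-fold) with an adjusted p of 5.56e-04 by the same test. On ND genotype raised it by 0.90 (95% CI 0.45 to 1.35, 1.87-fold) with an adjusted p of 0.00792 by the same test, and without the 5 mice with thymocyte markers, which left 2 WT(ND) mice, by 0.56 with 0.207, in a range of 5.83e-04 to 0.207. The other 3 calls for Aldh1l2 were kept in each alternative fit, at the stricter threshold and with each left-out mouse, and the diet effects differed by 0.26 (95% CI -0.36 to 0.89) with an adjusted p of 0.622 by the same test.

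The genes whose pattern over the 16 mice was most like that of Aldh1l2 were sought among 11666 genes by the root mean square difference in centred log2 CPM, which had a median of 0.992. They were Ggct at 0.298, Lrrk2 at 0.302, Ehf and Psap at 0.323 and Arhgap11a at 0.333. Mean levels of Ggct were 7.41 and 17.0 CPM in WT and Glis3-Pax8Cre mice on ND and 24.8 and 52.6 CPM on LID. Mean levels of Psap were likewise 1545 and 3268 CPM on ND and 4804 and 12043 CPM on LID. All 5 shared with Aldh1l2 the sequence of the 4 group means, which follows largely from choosing them by that difference, and no shared control is implied.

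**Figure D2:**
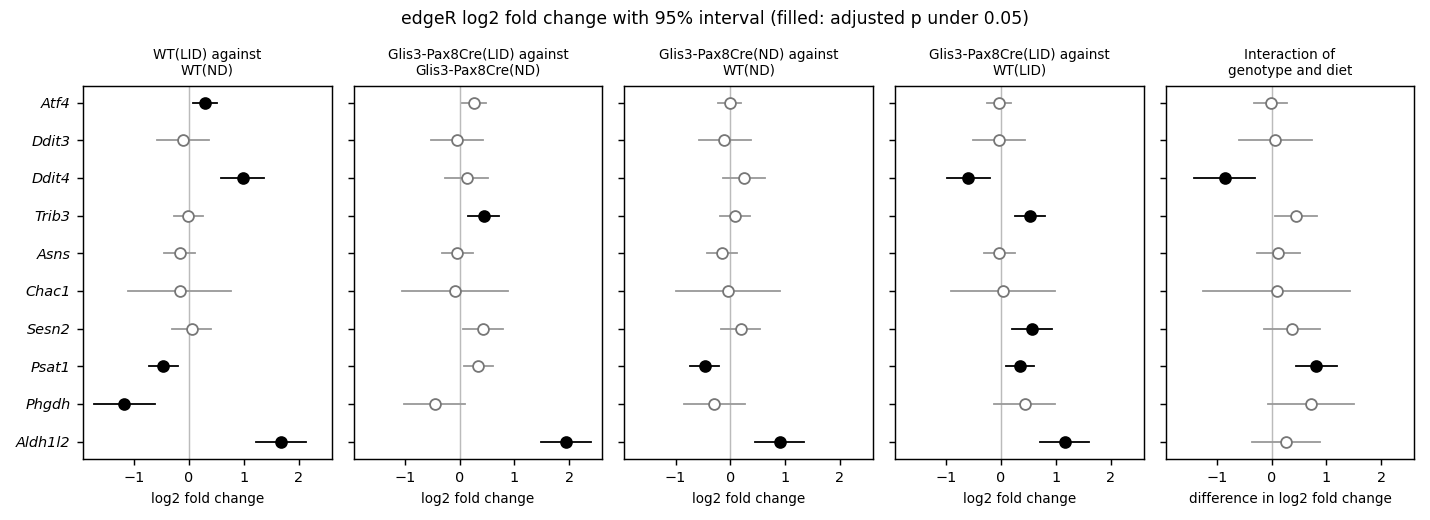
Log2 fold change (horizontal axis) with its 95% confidence interval for each of the 10 genes (vertical axis) in the 4 comparisons and for the interaction, with filled points for an adjusted p under 0.05 by edgeR. Aldh1l2 lies to the right in the 4 comparisons (1.68, 1.94, 0.90 and 1.17), Psat1 changes side (-0.48, 0.34, -0.46 and 0.35), and Asns, Ddit3 and Chac1 have intervals across 0.

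Counted over the 10 genes, a call being an adjusted p under 0.05, 5 were called for LID against ND in WT mice where 41.7% of all genes tested were, 3 of them higher (20.9% of all genes) and 2 lower (20.8%). For LID against ND in Glis3-Pax8Cre mice 2 were called against 25.4% of all genes, both higher (13.1% of all genes were higher and 12.3% lower). For genotype on ND 2 were called against 19.6% of all genes, 1 higher (10.3%) and 1 lower (9.25%). For genotype on LID 5 were called against 30.2% of all genes, 4 higher (14.9%) and 1 lower (15.4%). For the interaction 2 were called against 11.8% of all genes, 1 higher (4.43%) and 1 lower (7.41%). Those counts of members lie within 1 gene of what the share of all genes gives, except for genotype on LID, where that share gives about 3 of 10. For genotype on LID, 3 members were called without WT(LID) replicate 1 or 4 or without Glis3-Pax8Cre(LID) replicate 1, 2 or 4. Fewer of all genes were called in those fits too. In that order they were 4319, 4210, 4512, 4609 and 4310, beside 5028 with all 16 mice. The 4 comparisons share groups and are not independent of one another.

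Groups of 4 mice did not overlap for 5 members with the diet in WT mice (46.9% of all genes), for 2 with the diet in Glis3-Pax8Cre mice (21.9%), for 2 with genotype on ND (19.5%) and for 4 with genotype on LID (35.5%). At an adjusted p under 0.01 with more than a 2-fold change, Phgdh and Aldh1l2 passed for the diet in WT mice (12.5% of all genes) and Aldh1l2 alone for the diet in Glis3-Pax8Cre mice (5.0%) and for genotype on LID (7.93%). At that stricter threshold edgeR called 0 members for genotype on ND (4.15% of all genes) and for the interaction (3.63%), where 2 and 3 members had an unadjusted p under 0.05 by edgeR and 2 and 3 by DESeq2. The median log2 fold change of the 10 genes was -0.06 for the diet in WT mice and 0.20 in Glis3-Pax8Cre mice, beside -0.03 for all genes in each. With library size alone these medians were -0.22 and 0.06, beside -0.18 and -0.17 for all genes. For genotype the median of the 10 genes was -0.03 on ND and 0.20 on LID, beside 0.02 and 0.01 for all genes. With library size alone the genotype medians were 0.11 and 0.35, beside 0.14 and 0.16 for all genes. Aldh1l2 was called in the 4 comparisons, Psat1 in 3, Ddit4 and Trib3 in 2, Atf4, Sesn2 and Phgdh in 1 each, and 3 genes (Ddit3, Asns and Chac1) in none of them. The members therefore did not move as a block under either factor, and Phgdh and Psat1 fell on LID in the WT mice in which Atf4, Ddit4 and Aldh1l2 rose.

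**Figure D3:**
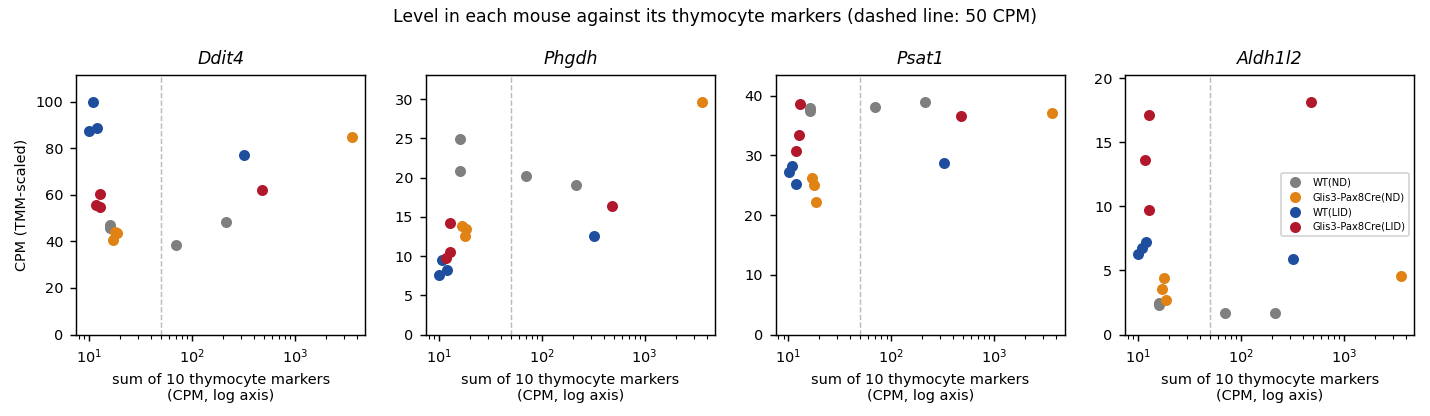
Level of Ddit4, Phgdh, Psat1 and Aldh1l2 in CPM (vertical axis from 0) against the sum of the 10 thymocyte markers in CPM (horizontal log axis) in each of the 16 mice, coloured by group, with a dashed line at 50 CPM. Glis3-Pax8Cre(ND) replicate 4, at 3608 CPM of markers, is the highest of its group for Ddit4 (84.9), Phgdh (29.6), Psat1 (37.1) and Aldh1l2 (4.60, beside 4.40 in the next mouse).

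Upstream of Atf4, the eIF2α kinases, the phosphatase subunits, eIF2 and eIF2B were described by 16 genes. Of all genes tested, 41.7% and 25.4% were called for the diet in WT and Glis3-Pax8Cre mice and 19.6% and 30.2% for genotype on ND and LID. For these 16 genes and the lists that follow, counts with library size alone, with DESeq2 or without the 5 mice with thymocyte markers are added where the number higher or the number lower changed by at least 2 genes. Without those 5 mice, 2 WT(ND) mice remained and fewer of all genes were called in each of the 4 comparisons. Of 16887 genes, 6110 and 3747 were called for the diet in WT and Glis3-Pax8Cre mice. For genotype 1038 were called on ND and 4252 on LID. With all 16 mice these numbers were 6943, 4223, 3252 and 5028 of 16630. Of the 16, 2 rose on LID in WT mice (Ppp1r15a by 0.38 and Eif2b2 by 0.17) and 2 in Glis3-Pax8Cre mice (Eif2s2 by 0.27 and the kinase PERK gene Eif2ak3 by 0.34), with medians of 0.07 and 0.10 that turned to -0.09 and -0.04 with library size alone, where 4 and 3 genes were called lower instead. On LID, Eif2s2 was higher in Glis3-Pax8Cre than in WT mice by 0.22 and Eif2ak2 lower by a log2 fold change of -0.37 (3 higher and none lower with library size alone). Of the named calls only that of Eif2s2 for genotype was kept with library size alone, and Eif2b2, Eif2ak3 and Eif2s2 for genotype lost theirs without the 5 mice. On ND edgeR called 0 of 16, with 1 at an unadjusted p under 0.05 and 1 called by DESeq2. Ppp1r15a overlaps Tulp2, and its count may lack reads that fit both genes or include some of Tulp2.

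Of 10 partners of ATF4 among bZIP and related factors, 4 rose and 1 fell on LID in WT mice and 3 rose in Glis3-Pax8Cre mice. Genotype raised 1 and lowered 2 on ND and raised 1 and lowered 3 on LID (3 raised and 1 lowered on each diet with library size alone). Atf3 had 2.21, 2.11, 1.53 and 2.73 CPM in the WT(ND) mice and from 2.95 to 12.2 CPM in the WT(LID) mice, with 1 WT(LID) mouse near the ND level and the other 3 far above it. Its mean was 2.36 ± 0.491 CPM in Glis3-Pax8Cre(ND) and 2.59 ± 0.414 in Glis3-Pax8Cre(LID). The rise of Atf3 in WT mice was 2.07 on the log2 scale with an adjusted p of 1.67e-04, and the interaction was -1.93 with 0.0134, by the quasi-likelihood test of edgeR (Benjamini-Hochberg). Without the 5 mice the rise was kept (1.99, adjusted p 0.0138 by the same test, within 2.29e-09 to 0.0138 over 5 alternatives), whereas the interaction was lost (-1.73, 0.172, within 5.98e-04 to 0.172). Of 17 other targets of ATF4 or CHOP tested, 6 rose and 3 fell on LID in WT mice (4 and 2 without the 5 mice), and 6 rose in Glis3-Pax8Cre mice (4 with library size alone and 4 without the 5 mice). Genotype raised 3 and lowered 5 of them on LID (5 raised and 3 lowered with library size alone, 3 and 3 without the 5 mice). On ND genotype raised 2 and lowered 3, and without the 5 mice it lowered 1 and raised none, with 4 at an unadjusted p under 0.05. Gdf15 went from 8.52 ± 1.35 to 109 ± 42.3 CPM on LID in WT mice (3.68 on the log2 scale, adjusted p 4.55e-07 by the same test) and from 9.32 ± 2.63 to 60.7 ± 18.6 CPM in Glis3-Pax8Cre mice (2.73, 2.05e-05). Stc2 went the way of Psat1, from 19.9 ± 3.59 to 10.6 ± 0.588 CPM on LID in WT mice and from 11.3 ± 1.89 to 15.7 ± 0.649 CPM in Glis3-Pax8Cre mice, with an interaction of 1.37 (adjusted p 2.18e-04 by the same test).

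Around Phgdh, Psat1 and Aldh1l2, 10 further genes of serine and one-carbon metabolism gave 1 higher and 3 lower on LID in WT mice, 1 higher and 1 lower in Glis3-Pax8Cre mice, 2 lower with genotype on ND and 1 higher and 1 lower with genotype on LID. The 2 genes lower on ND were called neither with library size alone nor without the 5 mice, where 2 genes of the list had an unadjusted p under 0.05 in each. Psph, for the last step of serine synthesis, fell in WT mice with Phgdh and Psat1 (log2 fold change -0.42, adjusted p 0.0200 by the quasi-likelihood test of edgeR (Benjamini-Hochberg)). Mthfd2, a mitochondrial folate enzyme, rose on LID from 4.24 ± 0.648 to 13.5 ± 0.563 CPM in WT mice (1.67, adjusted p 1.35e-04 by the same test) and from 6.50 ± 3.73 to 14.1 ± 1.59 CPM in Glis3-Pax8Cre mice (1.11, 0.00611). Aldh1l1, the cytosolic counterpart of Aldh1l2, moved the other way in WT mice, from 15.5 ± 3.69 to 8.43 ± 0.825 CPM on LID (-0.88, adjusted p 5.89e-04 by the same test). Of 10 tested genes of other amino acid synthesis, 6 rose and 2 fell on LID in WT mice (3 and 2 with library size alone), and 5 rose and 1 fell in Glis3-Pax8Cre mice. Genotype raised 4 on ND (2 without the 5 mice) and raised 3 and lowered 1 on LID. Of 11 amino acid transporters, 3 rose and 2 fell on LID in WT mice, and 4 rose and 1 fell in Glis3-Pax8Cre mice (6 and 1 without the 5 mice). Genotype raised 1 and lowered 2 on ND and raised 3 and lowered 3 on LID (3 raised and 1 lowered on each diet with library size alone). Slc1a5 was at 191 ± 20.9 CPM in WT(ND), 146 ± 18.4 in WT(LID), 161 ± 10.3 in Glis3-Pax8Cre(ND) and 236 ± 11.1 in Glis3-Pax8Cre(LID), with an interaction of 0.93 (adjusted p 3.64e-04 by the same test). Of 20 aminoacyl-tRNA synthetases, 2 rose and 3 fell on LID in WT mice and 3 rose in Glis3-Pax8Cre mice (1 with library size alone and 5 without the 5 mice). Of the same 20, 3 fell with genotype on ND (1 rose and none fell with library size alone, and 1 fell without the 5 mice). On LID, 4 of them rose and 2 fell with genotype (6 rose and none fell with library size alone).

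Of 8 further mTORC1 inhibitors, set beside Ddit4 and Sesn2, 1 rose and 3 fell on LID in WT mice (1 and 5 with library size alone), and 2 rose in Glis3-Pax8Cre mice. Of the same 8, 2 fell with genotype on ND (2 rose and 1 fell with library size alone, 2 rose and 2 fell with DESeq2), and 3 rose and 2 fell with genotype on LID. Gatsl2, which encodes CASTOR2, a relative of the arginine sensor CASTOR1, was like Ddit4 highest in WT(LID). Its levels were 29.4 ± 1.90 CPM in WT(ND), 135 ± 9.81 in WT(LID), 39.6 ± 2.24 in Glis3-Pax8Cre(ND) and 65.7 ± 17.9 in Glis3-Pax8Cre(LID). Gatsl2 was called higher on LID in WT and in Glis3-Pax8Cre mice. The interaction for Gatsl2 was -1.47 (adjusted p 3.00e-04 by the quasi-likelihood test of edgeR (Benjamini-Hochberg)). Ddit4l, the paralogue of Ddit4, fell in WT mice from 19.7 ± 6.94 to 5.88 ± 1.28 CPM on LID (-1.74, adjusted p 1.69e-04 by the same test). Of 8 glutathione genes, set beside Chac1, 6 rose and 2 fell on LID in WT mice, and 4 rose in Glis3-Pax8Cre mice. Genotype raised 1 and lowered 2 on ND (raised 1 and lowered none without the 5 mice) and raised 2 and lowered 3 on LID (4 raised and 2 lowered on LID with library size alone). In the ATF6 and XBP1 arm of the unfolded protein response, 7 of 18 genes rose on LID in WT mice (38.9%, beside 20.9% of all genes higher) and 9 in Glis3-Pax8Cre mice (beside 13.1%), with medians of 0.50 and 0.66. In WT mice 12 rose without the 5 mice, with a median of 0.84, and 5 rose and 1 fell with library size alone. With genotype 1 of those 18 rose on LID (3 with library size alone), and on ND edgeR called 0, with 3 at an unadjusted p under 0.05 and 1 called by DESeq2. On ND 3 rose with library size alone, and without the 5 mice the median went from -0.03 to 0.40, with none called and 7 at an unadjusted p under 0.05.

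**Figure D4:**
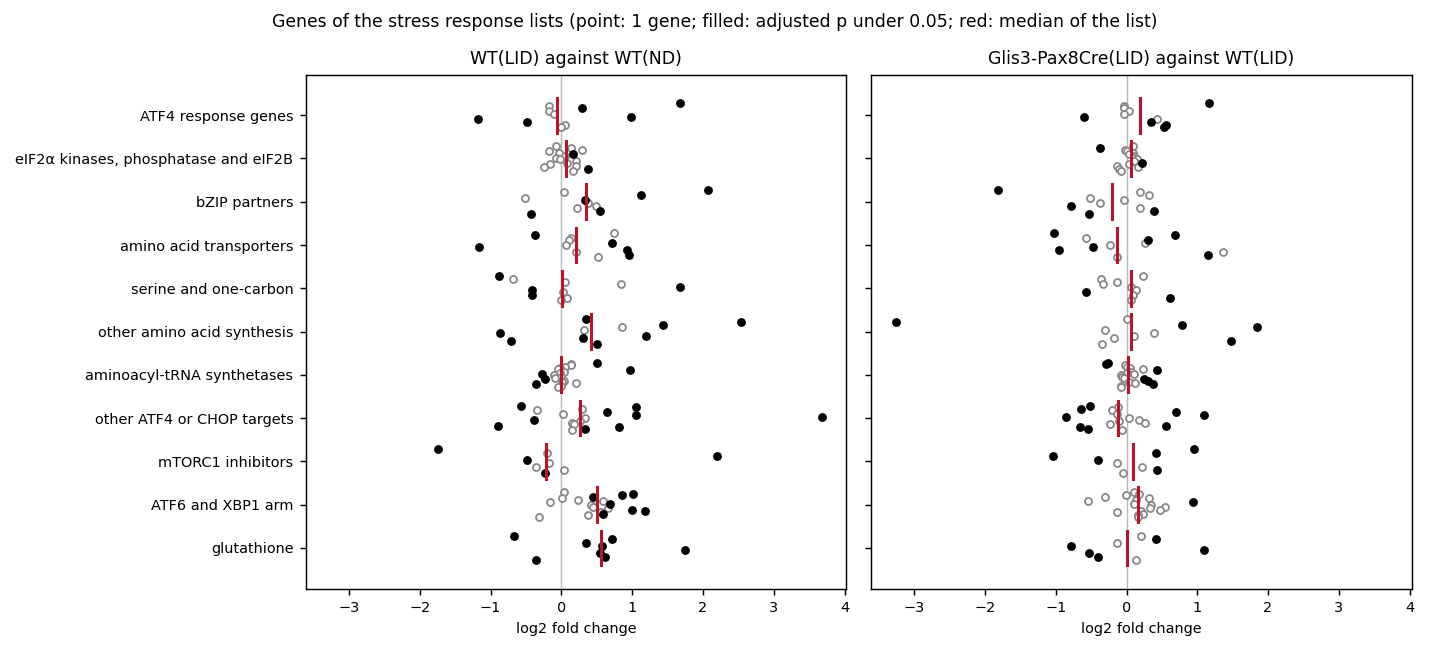
Log2 fold change (horizontal axis) of each gene of the response lists (vertical axis; 1 point a gene, filled for an adjusted p under 0.05, red line for the median of the list) for LID against ND in WT mice and for Glis3-Pax8Cre against WT mice on LID. The median of the 10 ATF4 response genes lies at -0.06 and 0.20 (-0.22 and 0.35 with library size alone), and that of the ATF6 and XBP1 arm at 0.50 and 0.16 (0.34 and 0.31 with library size alone).

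Levels of marker genes of several cell types differed between the groups too (the gene named as leading a list has its highest mean over the 16 mice), and whether this had a part in the results for the members was not tested. Counts of markers without the 5 mice come from the fit described above, which called fewer of all genes. The 10 follicular markers, led by Tg, were each detected in all 16 libraries and summed to between 99145 and 332775 CPM, with Tg giving 303736 of the 307970 CPM in WT(ND) replicate 1. Of these 10, 5 rose and 1 fell on LID in WT mice and 4 rose in Glis3-Pax8Cre mice (4 rose and 2 fell with library size alone). Genotype raised 2 and lowered 3 follicular markers on ND (1 and 1 without the 5 mice) and raised 4 and lowered 3 on LID, and the interaction was called negative for 3. The 5 parathyroid markers, led by Pth, summed to 6970, 9894, 12694 and 9992 CPM in WT(ND) and to 1717, 1834, 3810 and 3040 CPM in WT(LID). Their sums were 8871, 6796, 5747 and 5693 CPM in Glis3-Pax8Cre(ND) and 3582, 3456, 1257 and 453 CPM in Glis3-Pax8Cre(LID). Of these markers, 5 of the 5 fell on LID in WT mice and 4 in Glis3-Pax8Cre mice. The 5 C-cell markers, led by Calca, summed to 4739, 4317, 3672 and 2937 CPM in WT(ND) and to 1963, 1735, 1974 and 1432 CPM in WT(LID). In Glis3-Pax8Cre mice they summed to 2601, 2275, 2190 and 1256 CPM on ND and to 2109, 1518, 1237 and 1329 CPM on LID, with 4 of the 5 lower on LID in WT mice, 1 on LID in Glis3-Pax8Cre mice (3 with library size alone or without the 5 mice) and 4 with genotype on ND (2 without the 5 mice). The 7 adipocyte markers, led by Cfd, summed to 566, 1124, 665 and 1000 CPM in WT(ND) and to 368, 235, 261 and 322 CPM in WT(LID), with 6 of the 7 lower on LID. Adipocyte sums in Glis3-Pax8Cre mice were 626, 534, 343 and 275 CPM on ND and 532, 661, 564 and 276 CPM on LID, with 1 of the 7 higher on LID (1 lower instead with library size alone). With genotype 2 of the 7 were lower on ND and 1 was higher on LID (3 with DESeq2, 4 with library size alone and 5 without the 5 mice). The interaction was called positive for 4.

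The 5 endothelial markers, led by Kdr, summed to 512, 488, 620 and 578 CPM in WT(ND) and to 1316, 1327, 1488 and 1406 CPM in WT(LID). Endothelial sums in Glis3-Pax8Cre mice were 661, 889, 724 and 634 CPM on ND and 591, 731, 754 and 595 CPM on LID, so WT(LID) was highest. All 5 rose on LID in WT mice, 1 fell on LID in Glis3-Pax8Cre mice, and the interaction was called negative for all 5 (for 3 without the 5 mice with thymocyte markers). With genotype 4 of the 5 endothelial markers were lower on LID, and 2 were higher on ND (none without the 5 mice). The 6 fibroblast markers, led by Col3a1, summed to 940, 1261, 991 and 1053 CPM on ND and to 2430, 2227, 2469 and 2653 CPM on LID in WT mice. Fibroblast sums in Glis3-Pax8Cre mice were 974, 901, 664 and 507 CPM on ND and 1374, 1494, 1291 and 832 CPM on LID, lower than in WT(LID). The fibroblast sums do not speak for each gene, since 3 of the 6 rose and 2 fell on LID in WT mice and 3 rose and 1 fell in Glis3-Pax8Cre mice. With genotype 3 of the 6 were lower on LID. On ND genotype lowered 2 of them (5 with DESeq2, none with library size alone and none without the 5 mice). The 5 macrophage markers, led by Csf1r, summed to between 121 and 246 CPM in the 16 mice. All 5 were higher with genotype on ND (3 without the 5 mice), 3 fell on LID in Glis3-Pax8Cre mice, 2 rose on LID in WT mice, and 1 was higher with genotype on LID. Muscle markers (8, led by Acta1) varied among mice of every group and reached 1656 CPM, and airway markers (5, led by Bpifa1) ran from 1.14 to 257 CPM. Airway sums in Glis3-Pax8Cre(LID) were 257, 8.96, 7.94 and 25.9 CPM, the first of them with Bpifa1 at 193 CPM, which carries its lead. Of the 5 airway markers, 3 were called higher on LID in Glis3-Pax8Cre mice and 3 higher and 1 lower with genotype on LID. Without the 5 mice none of these was called higher, though 3 and 4 of the 5 had an unadjusted p under 0.05. Of the erythroid markers Alas2 lay between 6.35 and 67.0 CPM, and the globin genes are not analysed here.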

How the data were processed

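The deposited table holds raw read counts per gene, made by the authors with STAR 2.5 (mm10) and featureCounts 1.5.0-p1 on RefSeq genes without regard to strand, per the submitters' processing notes. The labels name NextSeq500 and NovaSeq instruments without assigning libraries. Counts of 16 mice were fitted in R 4.3.3 with edgeR 4.0.16 and limma 3.58.1 (TMM, filterByExpr, robust quasi-likelihood fit, 1 mean per group). Genes were called at a Benjamini-Hochberg adjusted p under 0.05 over 16630 genes. The interaction is the diet effect in Glis3-Pax8Cre mice minus that in WT mice. Exon lengths are merged GENCODE M21 exons.

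Members and lists were chosen with earlier results of these data known. Genes named besides the members were, in each list and comparison, called genes by p (at most 3 per direction, of which some are given), the 5 nearest patterns, leading markers, and Glis3, Slc5a5 and Tg. Ass1 and Fgf21 did not pass the filter.

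Replicate numbers were checked as pairs by correlating, across genes, the deviations of same-numbered mice from their group means. In replicates 1 to 4, r was 0.06, -0.18, 0.12 and 0.18 for the diet in WT mice, 0.25, 0.27, 0.61 and 0.68 for the diet in Glis3-Pax8Cre mice, -0.42, -0.21, 0.01 and -0.07 for genotype on ND and 0.19, -0.21, -0.49 and -0.27 for genotype on LID. Only the Glis3-Pax8Cre diet comparison passed 0.1 in all pairs, and a block for replicate in those 8 mice was added.

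Alternatives were DESeq2 1.42.0, relative log expression scaling, library size alone, Tg left out, no filter, at least 10 counts in every mouse, only the 8 mice of a comparison, a replicate block, no robust estimation, a stricter threshold and each mouse left out. The 50 CPM limit, the thymocyte covariate, the fit without those 5 mice and the 8-mouse block were chosen after seeing the data.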

Additional observations from a re-analysis of the deposited data

Results flagged for a closer look

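In 5 of the 40 combinations of member and group, 1 mouse lay far from the other 3, where chance flags about 1 in 20 groups of normally distributed values. The values used were CPM without logs, the combinations share the same 16 mice, and the rate over all genes was not computed. No excess over chance is therefore shown. Ddit4 stood at 84.9 CPM in Glis3-Pax8Cre(ND) replicate 4, with the nearest mouse of the group at 43.9 CPM. Phgdh stood at 29.6 CPM in the same mouse, with the nearest at 13.9 CPM. This mouse also had the highest sum of thymocyte markers of the 16, at 3608 CPM, and what part that had in both values was not tested. Asns stood at 28.4 CPM in WT(LID) replicate 1, with the nearest mouse at 23.1 CPM. Chac1 stood at 1.42 CPM in WT(ND) replicate 4, with the nearest mouse at 0.462 CPM. Sesn2 stood at 33.2 CPM in WT(ND) replicate 1, with the nearest mouse at 27.9 CPM.

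The diet effect differed between the genotypes for 2 members by the interaction term. For Ddit4 the effect of LID in Glis3-Pax8Cre mice minus that in WT mice was -0.85 on the log2 scale. It was -0.55 without Glis3-Pax8Cre(ND) replicate 4, and the call was kept with only 5 of the 16 left-out mice. For Psat1 the difference between the diet effects was 0.81. Reasons for these differences were not tested.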

How the results depend on the processing

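Of the 16 calls for single members, 8 were kept in every alternative fit and with every left-out mouse. These were Ddit4, Psat1, Phgdh and Aldh1l2 for the diet in WT mice, Aldh1l2 for the diet in Glis3-Pax8Cre mice, Trib3 and Aldh1l2 for genotype on LID, and Psat1 for the interaction. Of these 8, only the 4 calls of Phgdh and Aldh1l2 were kept at the stricter threshold too. Among alternative fits other than left-out mice, called values kept direction and call in 163 of 176 cases and lost the call in 13. Uncalled values did so in 339 of 374, became called in 10 and changed sign in 25. The cause of the changes given here was not tested. Scaling to library size alone moved the median of all genes from -0.03 to -0.18 for the diet in WT mice and from -0.03 to -0.17 in Glis3-Pax8Cre mice. For genotype the median moved from 0.02 to 0.14 on ND and from 0.01 to 0.16 on LID. The share of called genes that were higher moved with it, from 50.1% to 31.9%, from 51.7% to 27.7%, from 52.7% to 74.4% and from 49.1% to 69.1%. With 4 mice a group, uncalled members are bounded by their intervals only.

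The stricter threshold (adjusted p under 0.01 and over 2-fold) left 2 members of 5 for the diet in WT mice, 1 of 2 for the diet in Glis3-Pax8Cre mice, 0 of 2 for genotype on ND, 1 of 5 for genotype on LID and 0 of 2 for the interaction. Library size alone left 1 of 2 for the diet in Glis3-Pax8Cre mice, for genotype on ND and for the interaction. A fit of only the 8 mice compared left 1 of 2 for the diet in Glis3-Pax8Cre mice and for genotype on ND, and blocking on replicate in the Glis3-Pax8Cre mice alone left 1 of 2, with Trib3 at 0.44. Leaving out 1 mouse gave 4 to 5 members for the diet in WT mice, 1 to 4 in Glis3-Pax8Cre mice, 1 to 3 for genotype on ND, 3 to 5 for genotype on LID and 1 to 3 for the interaction. For the diet in Glis3-Pax8Cre mice, 4 were called without Glis3-Pax8Cre(LID) replicate 1 and 1 without replicate 2 or 3 of that group. For genotype on ND, 1 was called without Glis3-Pax8Cre(ND) replicate 3. For genotype on LID, 3 were called without WT(LID) replicate 1 or 4 or Glis3-Pax8Cre(LID) replicate 1, 2 or 4. For the interaction, 1 was called without any of WT(ND) replicates 1 to 4, WT(LID) replicates 1, 2 and 4, and Glis3-Pax8Cre(LID) replicates 1 to 4.

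Changes of sign were all in uncalled log2 values. With library size alone, Sesn2 became -0.11 (diet, WT) and Ddit4 -0.02 (diet, Glis3-Pax8Cre). On ND genotype became 0.11 for Atf4, 0.01 for Ddit3 and 0.12 for Chac1, and on LID 0.11 for Atf4 and Ddit3 and 0.12 for Asns, while the Atf4 interaction became 0.00. Relative log expression scaling gave 0.00 for Trib3 (diet, WT) and for Atf4 (genotype, ND). Leaving out Tg gave 0.00 for Trib3 (diet, WT), and the fit of 8 mice 0.01 for Atf4 (genotype, ND). The replicate block gave Chac1 values of 0.06 (diet, WT), 0.04 (diet, Glis3-Pax8Cre), 0.06 (genotype, ND) and -0.02 (interaction). The thymocyte covariate gave 0.03 for Chac1 (diet, Glis3-Pax8Cre). Without the 5 mice with thymocyte markers, the diet in Glis3-Pax8Cre mice gave 0.02 for Ddit3 and 0.34 for Chac1. Genotype on ND then gave 0.08 for Atf4 and Ddit3 and -0.12 for Ddit4, and genotype on LID gave 0.15 for Ddit3 and 0.04 for Asns.

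Leaving out 1 mouse at a time changed some signs, within these ranges. The diet in WT mice ran from -0.18 to 0.03 for Ddit3, -0.05 to 0.06 for Trib3, -0.39 to 0.61 for Chac1 and -0.01 to 0.17 for Sesn2. The diet in Glis3-Pax8Cre mice ran from -0.32 to 0.09 for Ddit3, -0.15 to 0.09 for Asns and -0.32 to 0.27 for Chac1. Genotype on ND ran from -0.05 to 0.03 for Atf4, -0.06 to 0.36 for Ddit4 and -0.41 to 0.74 for Chac1. Genotype on LID ran from -0.16 to 0.02 for Atf4, -0.31 to 0.10 for Ddit3, -0.09 to 0.06 for Asns and -0.19 to 0.22 for Chac1. The interaction ran from -0.15 to 0.03 for Atf4, -0.21 to 0.20 for Ddit3 and -0.70 to 0.44 for Chac1.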
